A study of Mus musculus with 18 samples.

Results

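Ion channel genes were examined in the dorsal telencephalon, the roof of the embryonic forebrain from which the neocortex grows, of 18 mouse embryos of stage E13.5. The genes encode voltage-gated sodium, calcium and potassium channel subunits, hyperpolarization-activated channels and acid-sensing channels. They were chosen by symbol (Scn, Cacna, Cacnb, Cacng, Kcna, Kcnc, Kcnd, Kcnh, Kcnq, Hcn and Asic families) among the 14807 genes that had a probe set with 1 symbol. The choice gave 52 genes in 13 families, on 53 probe sets. Kcnc1 alone had more than 1 probe set, and the one with the highest mean over all arrays stood for it. Asic2 was measured only on a probe set shared with another symbol and was not included. The embryos were 4 homozygous and 6 heterozygous for an Insm1 knockout, and 8 were wildtype. Insm1 is a zinc finger transcription factor made in the developing nervous system and in endocrine cells, and the study looked for genes that depend on it. The construction of the allele and the mouse strain are not given in the sources used here. One whole-transcript array was run per embryo, and values are log2 signals per probe set: 1 log2 unit stands for a 2-fold difference. Litters are not named in the labels, so the p-values speak to the spread among these embryos alone.

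Voltage-gated channels open when the membrane potential changes. Sodium and calcium channels carry inward, depolarizing current, and potassium channels carry the outward current that ends an impulse and sets its repetition. Each is built from a pore-forming subunit and auxiliary subunits that steer it to the membrane and tune its gating. Acid-sensing channels open when protons accumulate outside the cell and pass mainly sodium. In the embryonic cortex some of these genes come on as progenitors give way to postmitotic neurons, and channel activity accompanies migration and the outgrowth of processes.

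The targeted gene was read first. Insm1 (chromosome 2) averaged 3.31 ± 0.34 in homozygous embryos (SD, n = 4), 4.77 ± 0.39 in heterozygous embryos (n = 6) and 5.34 ± 0.34 in wildtype embryos (n = 8). Every homozygous embryo lay below every heterozygous and every wildtype embryo, and the homozygous mean was 24.5% of the wildtype mean (log2 difference -2.03, SE 0.20, adjusted p = 3.8e-05). It cannot be said whether the probes lie inside the deleted sequence. Along the first principal component, with 22% of the variance, heterozygous replicate 6 (35.0) and homozygous replicate 2 (19.2) stood apart from the other arrays (-13.4 to 5.55). The 75th percentile of signal was 4.67 to 4.75 on homozygous, 4.50 to 4.78 on heterozygous and 4.67 to 4.87 on wildtype arrays. The measured dorsal markers Emx2, Pax6, Lhx2 and Tbr1 averaged 7.26 in homozygous, 7.34 in heterozygous and 7.38 in wildtype embryos, so these markers of the labelled tissue were present.

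In homozygous against wildtype embryos, 3 of the 52 channel genes fell and none rose, at a limma p under 0.05 after Benjamini-Hochberg adjustment over all probe sets tested. They were Asic1, an acid-sensing channel subunit of central neurons, Kcnd3, a pore subunit of the transient A-type potassium current, and Kcnc1, a pore subunit of the fast delayed rectifier of rapidly firing neurons. Over all 16661 probe sets tested, 0.504% passed as lower and 0.564% in either direction. After a further quantile normalization or after centring each array on its median Asic1, Kcnd3 and Kcnc1 again passed as lower, beside 0.444% and 0.402% of probe sets, while the calls over all probe sets divided differently: 84 lower and 10 higher as deposited, 74 lower and 84 higher after quantile normalization, and 67 lower and 75 higher after centring. The heterozygous embryos gave no channel gene that passed against wildtype.

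Asic1 (chromosome 15) read 3.09, 3.04, 3.08 and 3.31 in the homozygous embryos. It ranged from 3.22 to 4.13 in heterozygous embryos (median 3.53) and from 3.59 to 4.13 in wildtype embryos (median 3.84). All 4 homozygous embryos lay below all 8 wildtype embryos, while the heterozygous embryos spread across the wildtype range with 3 of 6 below its lowest value. The homozygous mean was 60.8% of the wildtype mean (log2 difference -0.72, SE 0.14, adjusted p = 0.0195). An exact two-sided permutation test of this gene gave p = 0.00404, the smallest that 495 arrangements allow (0.0121 adjusted over 3 genotype comparisons). Groups that do not overlap always give this smallest p. Asic1 was picked for the test because earlier results of these data showed that it passed, so the test is not independent support. The adjusted p was above the threshold when homozygous replicate 2 (0.088) or homozygous replicate 3 (0.084) was left out, and when the mean level of 10 ventral telencephalon marker genes (0.056) or of 8 hypoxia response genes (0.057) was a covariate.

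Kcnd3 (chromosome 3) read 3.44, 3.29, 3.21 and 3.40 in the homozygous embryos. It ranged from 3.41 to 3.86 in heterozygous embryos (median 3.68) and from 3.70 to 3.96 in wildtype embryos (median 3.84). The homozygous embryos again lay wholly below the wildtype ones, and 3 of 6 heterozygous embryos were below the lowest wildtype value. The homozygous mean was 70.8% of the wildtype mean (log2 difference -0.50, SE 0.08, adjusted p = 0.0053).

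Kcnc1 (chromosome 7) read 0.93, 1.37, 1.05 and 1.22 in the homozygous embryos. It ranged from 1.49 to 1.70 in heterozygous embryos (median 1.52) and from 1.36 to 1.81 in wildtype embryos (median 1.69). Its homozygous values all lay below every heterozygous value. Among the marker genes the same held for Ina and Elavl2 (cortical neurons) and Ebf3 (Cajal-Retzius neurons). It also held for Elavl4 (basal progenitors), Lhx2 (apical progenitors) and Dlx5 (ventral telencephalon), so this separation was not particular to neuron markers. The share of all probe sets with such a separation was not counted. Against wildtype the groups touched, since homozygous replicate 2 (1.37) was just above wildtype replicate 4 (1.36). The homozygous mean was 69.6% of the wildtype mean (log2 difference -0.52, SE 0.09, adjusted p = 0.0057). These signals are below 2.14, the median probe set of the table, where log2 differences are compressed. A second Kcnc1 probe set averaged 0.94 ± 0.18 in homozygous (n = 4), 1.06 ± 0.11 in heterozygous (n = 6) and 1.14 ± 0.17 in wildtype embryos (n = 8), and its difference did not pass (-0.21, SE 0.09, adjusted p = 0.30). With the mean of both probe sets Kcnc1 still passed (-0.36, adjusted p = 0.028).

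**Figure D1:**
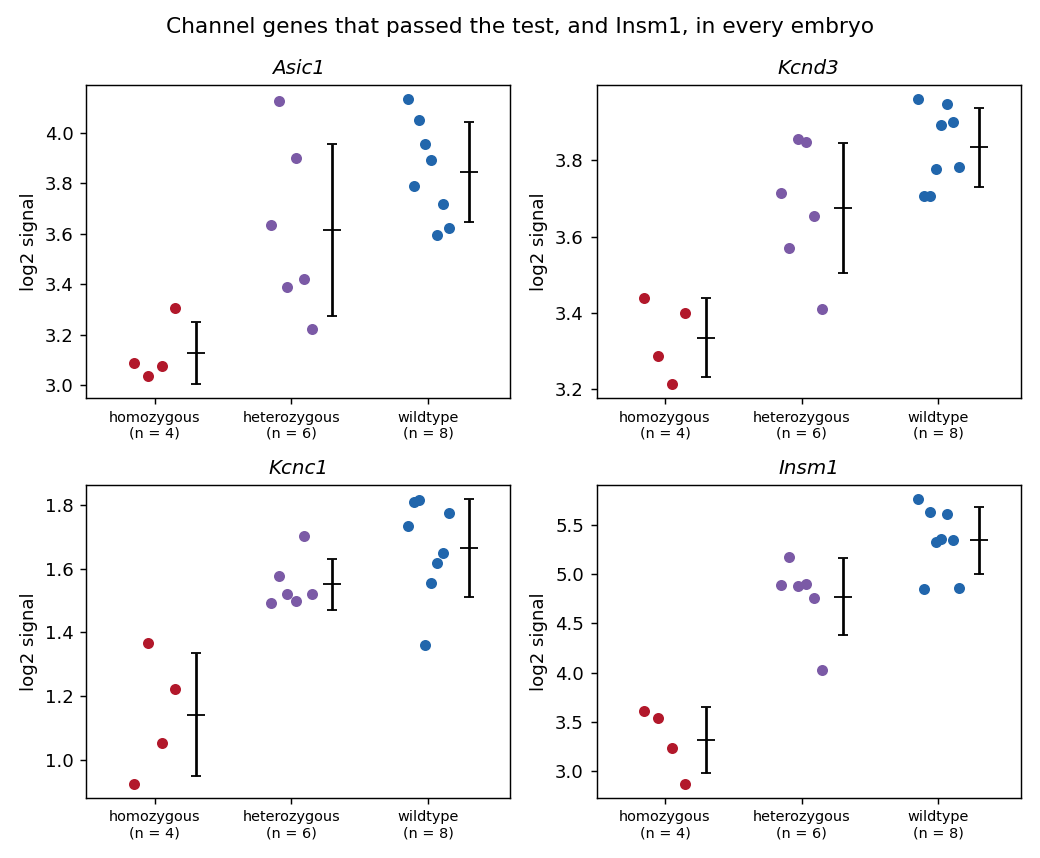
Log2 signal of Asic1, Kcnd3, Kcnc1 and Insm1 in every embryo, with the mean and SD of each genotype beside its points (cross bar and whiskers) and a separate scale in each panel. The homozygous points lie below all wildtype points for Asic1, Kcnd3 and Insm1, and 1 homozygous Kcnc1 point at 1.37 meets the lowest wildtype point at 1.36.

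The promoters of the 3 genes that fell are shown because they are the channel genes that passed. Each sequence is the RefSeq promoter of build GRCm38.p6, plus strand, 250 bases before to 50 bases after the annotated start, with E-boxes (CANNTG, the letters read by basic helix-loop-helix factors of neurogenesis) in capitals.
Asic1, chr15:99691974-99692273: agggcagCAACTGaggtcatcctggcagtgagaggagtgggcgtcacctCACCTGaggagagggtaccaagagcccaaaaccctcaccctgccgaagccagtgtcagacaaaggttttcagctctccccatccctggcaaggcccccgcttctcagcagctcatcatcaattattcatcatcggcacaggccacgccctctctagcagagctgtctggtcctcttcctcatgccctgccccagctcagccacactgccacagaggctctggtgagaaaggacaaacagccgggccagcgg
Kcnd3, chr3:105451640-105451939: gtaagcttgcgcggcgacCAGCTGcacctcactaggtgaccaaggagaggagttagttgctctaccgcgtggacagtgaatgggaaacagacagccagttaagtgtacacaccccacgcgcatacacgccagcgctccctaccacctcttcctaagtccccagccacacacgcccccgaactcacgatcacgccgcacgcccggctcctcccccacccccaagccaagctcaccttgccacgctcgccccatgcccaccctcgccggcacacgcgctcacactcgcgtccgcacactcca
Kcnc1, chr7:46396218-46396517: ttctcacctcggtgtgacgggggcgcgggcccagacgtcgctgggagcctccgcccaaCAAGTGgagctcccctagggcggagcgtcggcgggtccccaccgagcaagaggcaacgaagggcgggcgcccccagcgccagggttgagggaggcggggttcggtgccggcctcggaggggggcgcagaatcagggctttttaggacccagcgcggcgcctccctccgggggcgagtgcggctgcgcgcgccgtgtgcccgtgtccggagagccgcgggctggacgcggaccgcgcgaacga
The Asic1 promoter held 2 E-boxes, CAACTG starting 243 bases and CACCTG starting 201 bases before the annotated start. Kcnd3 held 1, CAGCTG, starting 232 bases before it, and Kcnc1 held 1, CAAGTG, starting 192 bases before it. An E-box occurred in 36 (75%) of the 48 promoters found for 39 of the 52 channel genes, against 72.3% of all 32851 promoters, searched on both strands. Kcnc1 held 3 GC boxes (GGGCGG, both strands), which 47.9% of channel gene promoters and 35.7% of all promoters contained. The letters TATAAA were in 4.17% of channel gene promoters and in 13.6% of all promoters. Median GC content was 63.2% in channel gene promoters and 52.7% in all promoters. The searched motifs can overlap one another, and a match is a description of letters.

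Across all 52 genes, the mean was lower in homozygous than in wildtype embryos for 39 genes (75%), against 8872 of 14807 genes (59.9%). The median log2 difference was -0.10 for the channel genes and -0.03 for all genes, and single channel genes ran from -0.72 to 0.08. At an unadjusted p under 0.05 there were 16 channel genes (30.8%), all lower, beside a background of 12.1% of probe sets lower. The homozygous values lay wholly below the wildtype values for 5 genes (9.62%), namely Asic1, Kcnd3, Cacna1b, Cacna1a and Cacnb2, beside 2.21% of probe sets. The mean signal over the 52 genes was 1.71 to 1.80 in homozygous, 1.81 to 1.88 in heterozygous and 1.85 to 1.95 in wildtype embryos. The homozygous and wildtype ranges did not overlap in the values as deposited. This mean was not computed over all genes or after another scaling of the arrays.

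The level of the signal and the scaling of the arrays bear on those counts. Of the 19 channel genes above the median probe set, 18 had a lower homozygous mean (94.7%, median -0.21), against 70.2% of all genes above it (median -0.08). Of the 33 below it, 21 did (63.6%, median -0.05), against 48.9% of all genes below it (median 0.00). The exception among the 19 was Cacna1g, a T-type pore subunit, at 3.71 ± 0.18 in homozygous (n = 4) and 3.63 ± 0.12 in wildtype embryos (n = 8). After a further quantile normalization 39 of 52 genes had a lower homozygous mean (median -0.07) with 7 at an unadjusted p under 0.05, all lower, beside a background of 7.26%. After median centring there were 31 (median -0.04) with 6 at that level, all lower, beside 6.30%. These scalings moved the median over all genes to 0.00 and 0.04. Without the 2 arrays that stood apart, 43 genes had a lower homozygous mean. In that fit 12 were at an unadjusted p under 0.05, all lower, beside 1748 of 16661 probe sets lower. Asic1, Kcnd3 and Kcnc1 passed, where 79 of 16661 probe sets passed as lower.

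**Figure D2:**
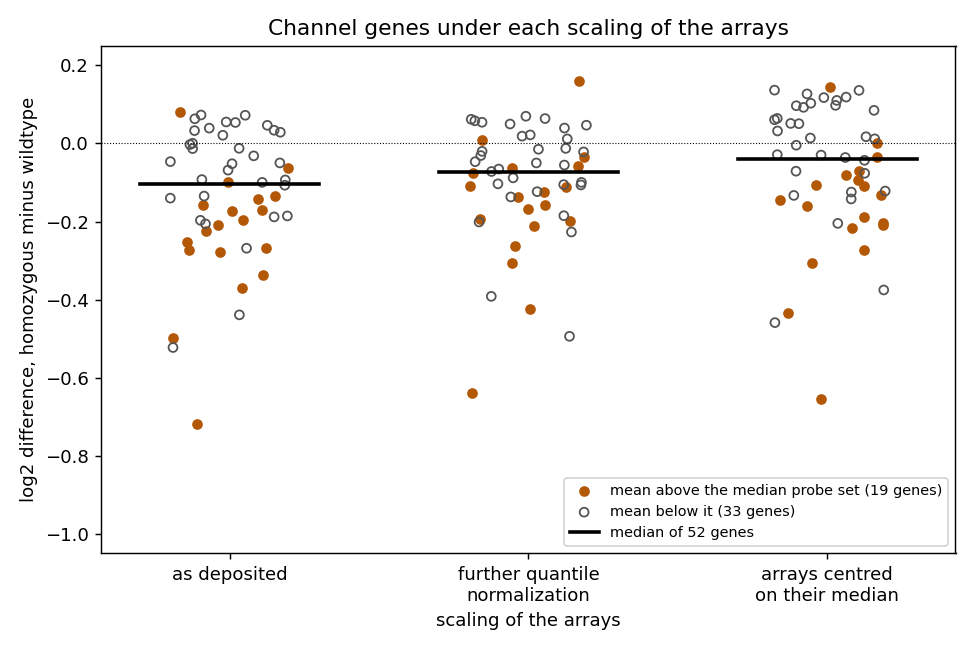
Log2 differences, homozygous minus wildtype, of the 52 channel genes under each of 3 scalings of the arrays, with filled points for the 19 genes above the median probe set, open points for the 33 below it and a line at the median of the 52. The medians are -0.10 as deposited, -0.07 after further quantile normalization and -0.04 after median centring, and Asic1, Kcnc1 and Kcnd3 are the lowest points in each.

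The samples are bulk tissue, so fewer cells of a type and less RNA per cell cannot be told apart. Of 22 cortical neuron markers, 21 were measured and all had a lower mean in homozygous than in wildtype embryos, with 6 passing the test. Of these 21, 20 were above the median probe set, where 70.2% of all genes had a lower homozygous mean. Over all genes that share was 59.9%, and 0.504% of probe sets passed as lower. The level of the neuron markers, given as the mean over the list, was 5.72 to 5.80 in homozygous, 5.85 to 6.18 in heterozygous and 5.97 to 6.31 in wildtype embryos. Of 9 Cajal-Retzius markers 8 had a lower homozygous mean, 1 of them passing, with a list mean of 2.57 ± 0.02 in homozygous (n = 4) and 2.86 ± 0.08 in wildtype embryos (n = 8). The list of 10 ventral telencephalon and interneuron genes averaged 1.41 to 1.58 in homozygous and 1.36 to 1.99 in wildtype embryos, and none passed. The hypoxia list of 8 genes averaged 3.54 to 5.03 in homozygous, 3.44 to 4.98 in heterozygous and 3.31 to 3.74 in wildtype embryos. Its mean was highest in homozygous replicate 2, and none of its genes passed. Of 11 basal progenitor markers, all above the median probe set, 7 had a lower homozygous mean and 3 passed. The count of 7 was not above the 70.2% of all genes at that level. Of 12 apical progenitor markers 3 had a lower homozygous mean and none passed. No marker passed among those of hem and choroid plexus, meninges, erythroid cells, vessels or microglia. The part of these lists in the channel gene differences was not tested beyond the covariate fits given above.

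Among the voltage-gated calcium channel genes, none of 18 passed in any genotype comparison. Their mean was lower in homozygous than in wildtype embryos for 14 of 18 (77.8%), with a median log2 difference of -0.15. The share was 59.9% of all genes, and 70.2% of all genes above the median probe set, where 11 of the 18 lay. The calcium count was 15 after quantile normalization and 13 after centring. Of the 18, 8 (44.4%) reached an unadjusted p under 0.05 as deposited, all lower, beside 12.1% of probe sets lower. Under each of the other scalings 3 did, beside 7.26% of probe sets lower after quantile normalization and 6.30% after centring.

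The pore-forming calcium subunits numbered 9, of which 6 (66.7%) had a lower homozygous mean, against 59.9% of all genes. Cacna1b, the pore of the N-type channel of presynaptic terminals, read 2.36, 2.23, 2.20 and 2.26 in homozygous embryos. It ranged from 2.20 to 2.46 in heterozygous and from 2.37 to 2.56 in wildtype embryos. Each homozygous value was below each wildtype value and the difference did not pass (-0.20, SE 0.06, adjusted p = 0.13). Cacna1a, the P/Q-type pore, was picked out after its values were seen because its groups did not overlap either. It ranged from 2.79 to 2.87 in homozygous, from 2.82 to 2.94 in heterozygous and from 2.88 to 2.97 in wildtype embryos, a difference of only -0.10 (SE 0.04, adjusted p = 0.28). Cacna1c, the L-type pore of heart and brain, averaged 2.12 ± 0.12 in homozygous (n = 4) and 2.29 ± 0.11 in wildtype embryos (n = 8) and did not pass (adjusted p = 0.27). The other 6 were Cacna1d and Cacna1f (L-type), Cacna1s (the skeletal muscle L-type pore), Cacna1e (R-type), Cacna1g and Cacna1h (T-type), with differences of -0.23 in Cacna1e to 0.08 in Cacna1g and no adjusted p under 0.5.

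The auxiliary calcium subunits numbered 9, and 8 had a lower homozygous mean under every scaling (median -0.21 as deposited). As deposited that was 88.9%, against 59.9% of all genes. Cacnb2, a cytoplasmic beta subunit that brings the pore to the membrane, read 2.35, 2.37, 2.13 and 2.08 in homozygous embryos. It ranged from 2.29 to 2.57 in heterozygous and from 2.37 to 2.71 in wildtype embryos. The highest homozygous value sat just under the lowest wildtype value, and 4 of 6 heterozygous embryos were below that value too. The difference was -0.28 (SE 0.08) and did not pass (adjusted p = 0.092), except with the level of the Y-linked gene Eif2s3y as a covariate (-0.33, adjusted p = 0.039). Cacnb1 was at -0.16 (adjusted p = 0.31) and Cacnb4 at -0.21 (adjusted p = 0.34). Cacna2d2 and Cacna2d3, extracellular alpha2delta subunits that promote trafficking of the channel, were at -0.27 (adjusted p = 0.18) and -0.13 (adjusted p = 0.34).

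The gamma subunits include stargazin, Cacng2, which with Cacng4 is better known for escorting AMPA-type glutamate receptors than for calcium currents. Cacng2 read 1.45, 1.15, 1.44 and 1.88 in homozygous embryos. It ranged from 1.08 to 1.81 in heterozygous embryos and from 1.55 to 2.27 in wildtype embryos. Homozygous and heterozygous embryos covered the same low range, and each overlapped the wildtype embryos. The difference from wildtype was -0.44 in homozygous (SE 0.16, adjusted p = 0.19) and -0.44 in heterozygous embryos (SE 0.14, adjusted p = 0.64), and both comparisons share the wildtype arrays. Cacng4 read 6.93, 6.06, 6.21 and 6.62 in homozygous embryos, against 6.54 to 7.10 in wildtype embryos. Homozygous replicates 1 and 4 were inside the wildtype range and the other homozygous embryos were below it, and the difference was -0.37 (SE 0.14, adjusted p = 0.20). Without homozygous replicate 1 it was -0.53 and passed (adjusted p = 0.039), and without homozygous replicate 2, an array that stood apart, it was -0.24 (adjusted p = 0.55). Cacng1, of skeletal muscle, and Cacng5 were at 0.07 and -0.09, with signals under 1.1 on every array.

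**Figure D3:**
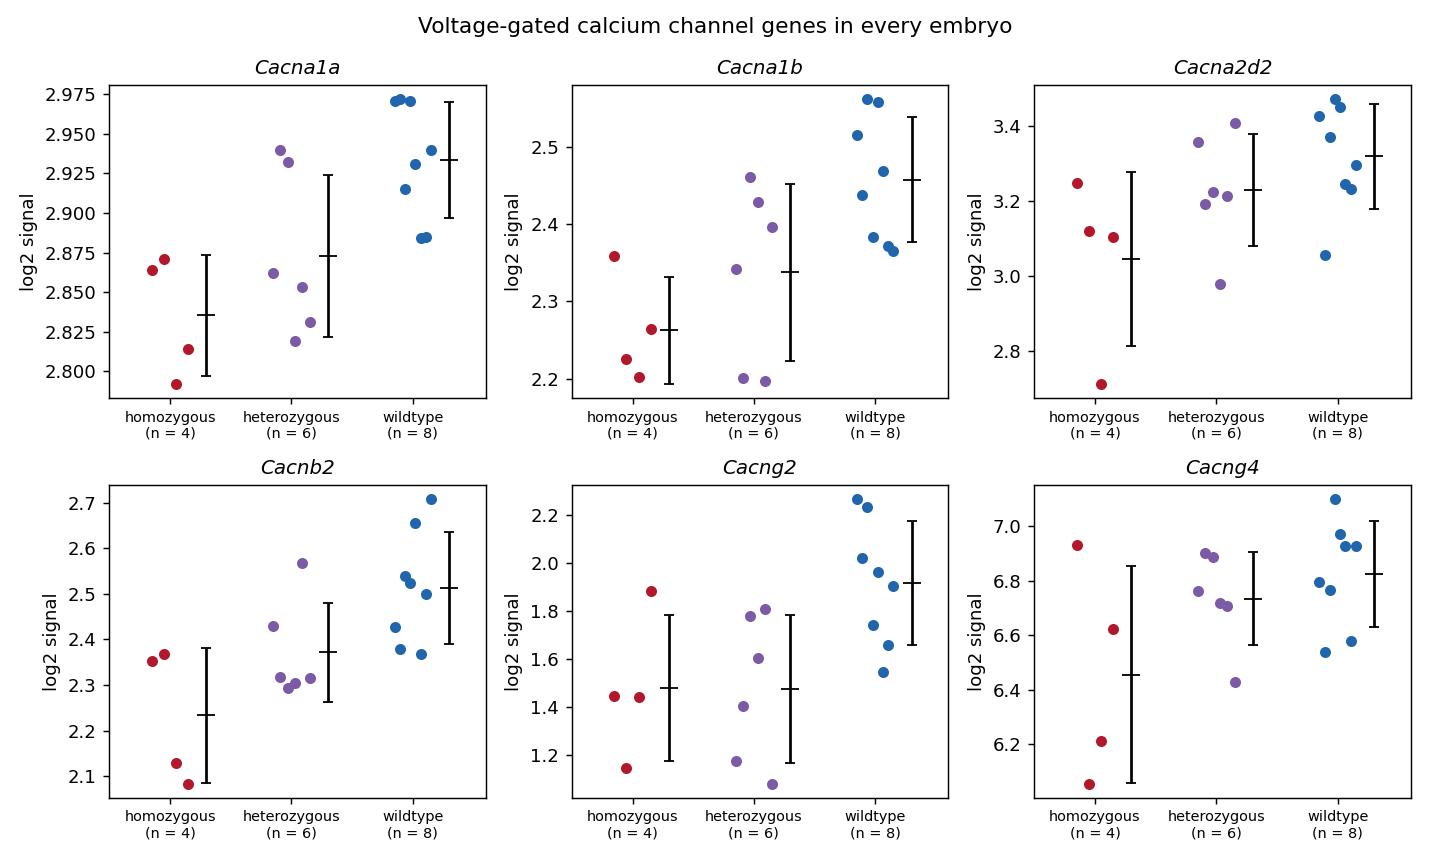
Log2 signal of 6 calcium channel subunit genes in every embryo, with mean and SD of each genotype beside its points (cross bar and whiskers) and a separate scale in each panel. Homozygous and wildtype points do not overlap for Cacna1a, Cacna1b and Cacnb2, while the homozygous Cacng4 points at 6.93 and 6.62 lie within the wildtype range.

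Of 19 potassium channel pore genes, 16 (84.2%) had a lower homozygous mean (median -0.11), against 59.9% of all genes. The count was 15 after quantile normalization and 11 after centring. The A-type Kcnd family, of 3 genes, had a median of -0.34. Beside Kcnd3, Kcnd2, the A-type pore of dendrites, read 3.59, 2.74, 3.17 and 3.12 in homozygous embryos, against 3.28 to 3.70 in wildtype embryos. Homozygous replicate 2 was lowest and replicate 1 lay within the wildtype range, and the difference of -0.34 (SE 0.14) did not pass (adjusted p = 0.26). Without homozygous replicate 2, Kcnd2 was at -0.20 (adjusted p = 0.65), and the family median, which is the value of Kcnd2, was -0.20 without the 2 arrays that stood apart. Kcnd1 was at -0.03.

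The Shaker-type Kcna genes, pore subunits of potassium channels known from axons, numbered 7, and 6 had a lower homozygous mean, 4 after centring. Kcna3, also known as the main Kcna channel of T lymphocytes, read 4.63, 4.55, 4.23 and 4.36 in homozygous embryos, against 4.45 to 4.96 in wildtype embryos. The groups overlapped and the difference of -0.25 (SE 0.10) did not pass (adjusted p = 0.21). Kcna1, an axonal subunit mutated in human episodic ataxia, was at -0.20 (adjusted p = 0.45). Kcna2, Kcna4, Kcna5, Kcna6 and Kcna7 lay between -0.11 and 0.04. Kcnc4, the other Kcnc gene, was at 0.03 (SE 0.08, adjusted p = 0.90), with a sign that turned in 6 alternative settings.

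The 5 Kcnh genes, of the ether-a-go-go family, all had a lower homozygous mean as deposited, 4 after quantile normalization and 3 after centring. Kcnh5 was at -0.27 (SE 0.10, adjusted p = 0.21) and Kcnh2, the cardiac channel affected in long QT syndrome, at -0.14 (SE 0.08, adjusted p = 0.41). Kcnh1, Kcnh3 and Kcnh7 lay between -0.17 and -0.01. Kcnq3, a partner in the M-current channel that restrains repetitive firing, averaged 2.67 ± 0.12 in homozygous (n = 4) and 2.93 ± 0.19 in wildtype embryos (n = 8), and did not pass (-0.27, adjusted p = 0.24). Kcnq1, of heart and epithelia, was at 0.07 (adjusted p = 0.63). Hcn2, a pacemaker channel that opens on hyperpolarization, averaged 1.18 ± 0.15 in homozygous (n = 4) and 1.31 ± 0.09 in wildtype embryos (n = 8), and did not pass (-0.13, adjusted p = 0.38).

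None of the 10 sodium channel genes passed or reached an unadjusted p under 0.05 in homozygous against wildtype embryos. The signs were balanced, with 5 lower and 5 higher, 5 lower after quantile normalization and 4 after centring. Of the 10, 9 were below the median probe set, where 48.9% of all genes had a lower homozygous mean. In the dimmest 1 of every 3 probe sets lay 6 of them, so dim signal limits what the balance can show. Scn3a, the pore subunit that predominates in embryonic brain, ranged from 1.82 to 2.07 in homozygous, from 1.64 to 2.05 in heterozygous and from 1.87 to 2.56 in wildtype embryos. The heterozygous embryos held the lowest values, 4 of 6 being below every wildtype embryo. The difference from wildtype was -0.19 in homozygous (SE 0.11, adjusted p = 0.47) and -0.29 in heterozygous embryos (adjusted p = 0.66). Scn8a, the main pore of the adult axon initial segment, was at -0.10, and Scn1a, known from inhibitory interneurons and Dravet syndrome, at -0.05. Scn9a, Scn10a and Scn11a, pores of sensory neurons, and Scn7a, a sodium-sensing relative, lay between -0.07 and 0.05 at signals under 1.6 on every array. Among the beta subunits, adhesion proteins that modulate the pore, Scn3b was at -0.21 (adjusted p = 0.42), Scn2b at 0.06 and Scn4b at 0.05.

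Of the 4 acid-sensing genes Asic1 alone passed. Asic3, best known from sensory neurons, read 0.46, 0.47, 0.54 and 0.50 in homozygous embryos, against 0.52 to 0.89 in wildtype embryos. The groups overlapped in 1 homozygous embryo, and the difference of -0.19 (SE 0.06) did not pass (adjusted p = 0.15). Asic4 was at 0.06 and Asic5 at -0.05. Asic3, Asic4 and Asic5 were among the 18 channel genes in the dimmest 1 of every 3 probe sets, where a difference can be masked.

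**Figure D4:**
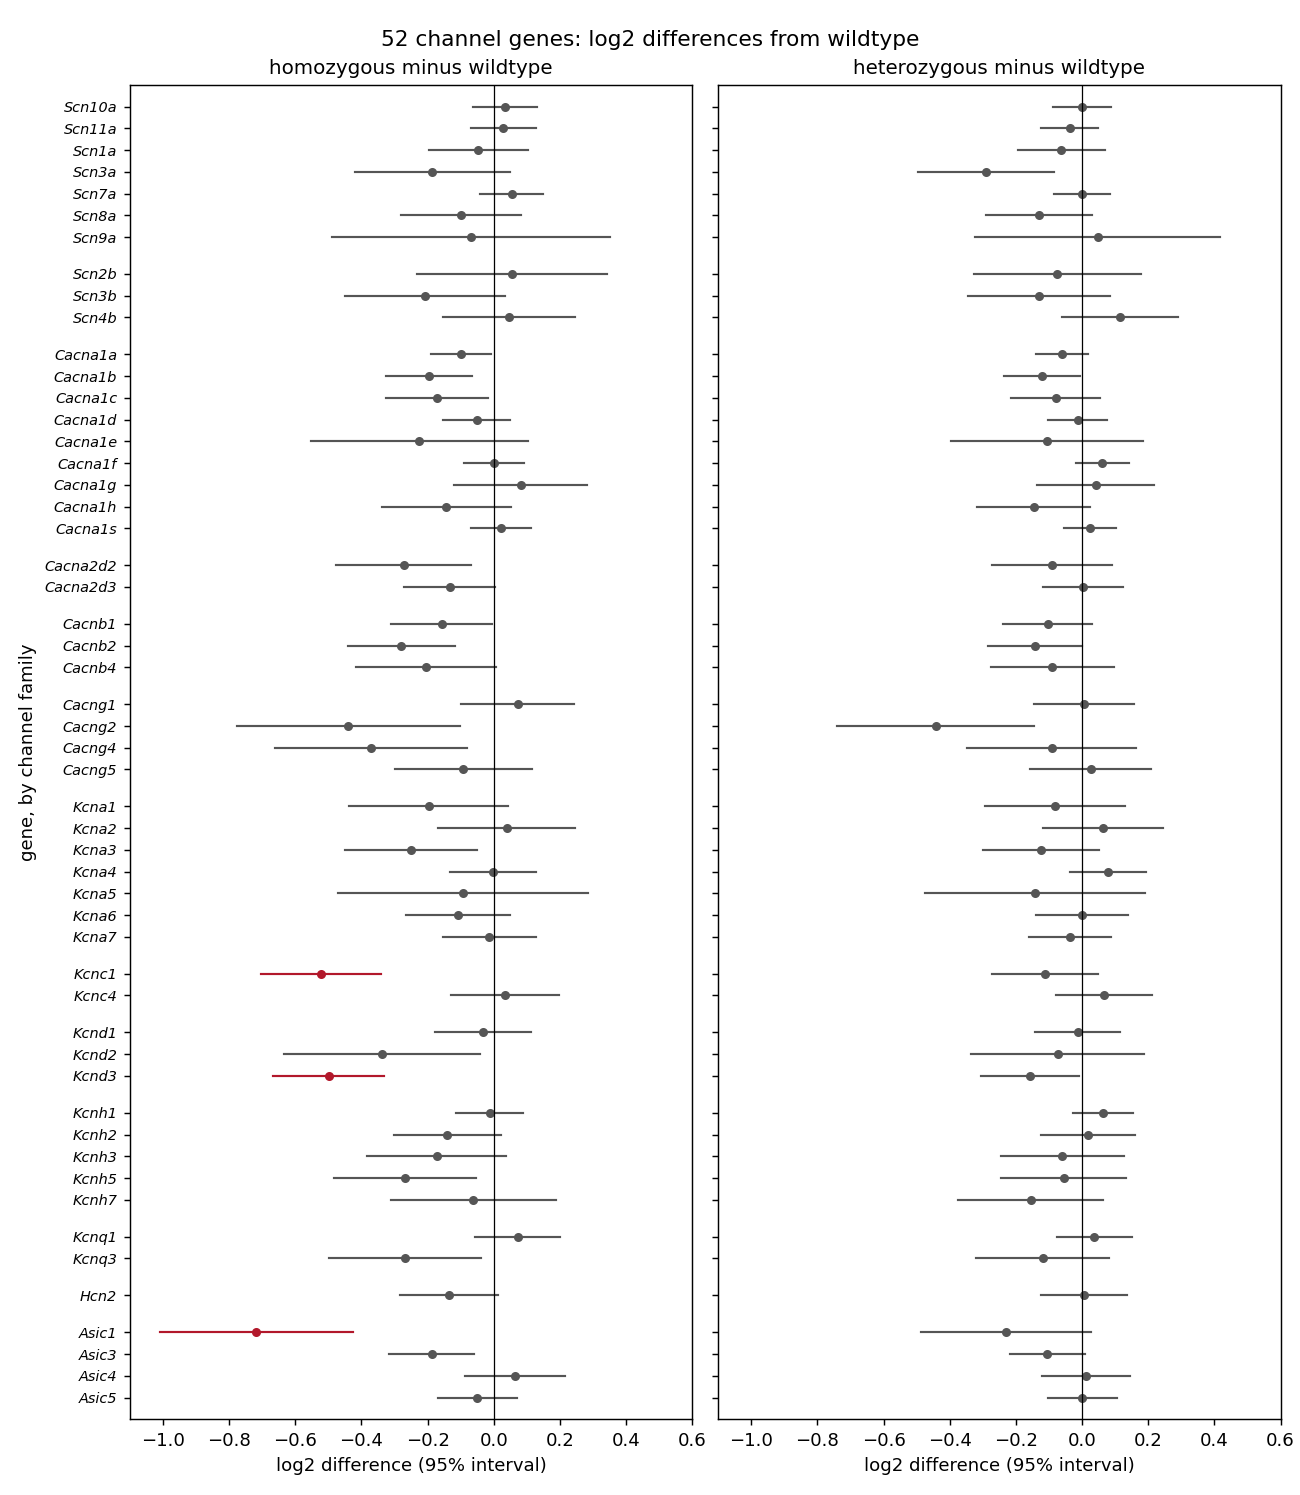
Log2 differences of the 52 channel genes, homozygous minus wildtype (left) and heterozygous minus wildtype (right), as points with 95% intervals, ordered by family, with red for an adjusted p under 0.05. Red appears for 3 genes on the left, Asic1, Kcnd3 and Kcnc1, and for none on the right, and both panels share the 8 wildtype arrays.

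In heterozygous against wildtype embryos, none of the 52 genes passed in limma, and the background was 0.00% of probe sets. At an unadjusted p under 0.05 there were 4 channel genes, all lower (Cacng2, Scn3a, Kcnd3 and Cacna1b), beside 5.13% of probe sets lower. After centring 2 of 4 such genes were lower, beside 269 of 16661 probe sets lower. The mean was lower in heterozygous embryos for 35 of 52 genes, against 9027 of 14807 genes, with a median of -0.06 against -0.03 for all genes. Kcnd3 was at -0.16 (SE 0.07, adjusted p = 0.66), Asic1 at -0.23 (SE 0.12, adjusted p = 0.67, exact permutation p = 0.14) and Kcnc1 at -0.11 (SE 0.08, adjusted p = 0.70). For these 3 genes the 95% intervals of the heterozygous difference reached -0.31, -0.49 and -0.27.

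In homozygous against heterozygous embryos none of the 52 genes passed in limma, beside a background of 0.0300% of probe sets. At an unadjusted p under 0.05 there were 3, all lower, Kcnc1 (-0.41, adjusted p = 0.15), Kcnd3 (-0.34, adjusted p = 0.20) and Asic1 (-0.49, adjusted p = 0.34), beside 4.66% of probe sets lower. An exact two-sided permutation test of Asic1 gave p = 0.019 here (0.0286 adjusted over 3 genotype comparisons), a test of this gene alone, where the limma p is adjusted over all probe sets. Asic1 was picked for it from earlier results of these data, and the adjustment over 3 comparisons does not cover that choice. With the number of mutant alleles as a numeric term, the same 3 genes passed with lower signal per allele, beside 0.642% of probe sets. The slopes were -0.34 per allele for Asic1 (adjusted p = 0.023), -0.24 for Kcnd3 (adjusted p = 0.0079) and -0.24 for Kcnc1 (adjusted p = 0.015). In alternative fits of the slope, 2 of the 52 genes passed after quantile normalization (Asic1 and Kcnc1), after median centring (Asic1 and Kcnd3), and without the 2 arrays that stood apart (Kcnc1 and Kcnd3). Asic1 also missed the threshold of the slope with the 75th percentile, the ventral or the hypoxia covariate, and without homozygous replicate 2 or 4 or wildtype replicate 1, 3 or 4. Without homozygous replicate 3 Kcnd3 alone passed.

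The other channel genes measured beside these, in 7 lists covering 59 genes, gave no call in homozygous against wildtype embryos, and 37 had a lower homozygous mean (median -0.04). That is 62.7%, against 59.9% of all genes. At an unadjusted p under 0.05 there were 9 (15.3%), 8 lower and 1 higher (Kcnj9), against 15.7% of all genes, so both shares were near the background. The 8 measured partners and anchors of sodium channels all had a lower homozygous mean, led by Fgf12, an intracellular modulator of the channel, at -0.24 (SE 0.07, adjusted p = 0.11). Kcnv1, a silent potassium subunit that works only with partner pores, was at -0.53 (SE 0.19, adjusted p = 0.17), and 5 of 8 silent subunits had a lower mean. Dpp10, an auxiliary protein of the A-type Kcnd channels, was at -0.26 (SE 0.09, adjusted p = 0.15), and 9 of 13 auxiliary subunits had a lower mean. Kcnn1, a small-conductance calcium-activated channel, was at -0.30 (SE 0.09, adjusted p = 0.12), and 6 of 8 calcium- and sodium-activated channels had a lower mean. The inward rectifier Kcnj9 (0.21, adjusted p = 0.28, and 0.081 without homozygous replicate 3), the two-pore channel Kcnk4 (0.12, adjusted p = 0.55) and the sodium leak channel Nalcn (0.09, adjusted p = 0.61) had a higher homozygous mean and did not pass. A lower mean was found for 4 of 11 inward rectifiers and 5 of 9 two-pore channels.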

How the data were processed

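Total RNA from 18 embryos was labelled for whole-transcript arrays per the labels' protocols, and the deposited values are log2 signals per probe set, made by the authors with RMA in Affymetrix Expression Console 1.1, per the submitters' processing notes. Background correction, quantile normalization and probe summary by RMA compress differences of dim probe sets. Of 23238 probe sets, the 16661 with identifiers of 6700000 or above were tested (14939 with 1 symbol, 989 with several, 733 with none), and 6577 lower identifiers were left out. The log base was read from the values: the lowest array maximum, 11.3, exceeds the natural log of the 16-bit maximum, 11.1.

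The limma package (version 3.58.1; R version 4.3.3) fitted the mean of each genotype on the 18 arrays together by lmFit and eBayes in two-sided tests, with Benjamini-Hochberg adjustment over the 16661 probe sets, a threshold of 0.05 and no filter on dim probe sets. A second fit used the number of mutant alleles. Exact permutation tests used SciPy 1.17.1. The fit was also run on simulated data with independent noise per probe set and no shifts of whole arrays. That run therefore cannot speak to the scaling of the arrays. All 52 channel genes matched the RefSeq gene table of GRCm38.p6, which gave chromosomes, and promoters were matched for 39. The number of arrays, mainly the 4 homozygous ones, limits the precision.

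The channel genes, marker lists and tests were chosen with earlier results of these data known. Genes were named by rule: Insm1, every channel gene that passed, the 2 genes of each family with the smallest unadjusted p in homozygous against wildtype, the 3 with the smallest in each other comparison, and the leading gene of each related list; other names complete a family or were chosen after their values were seen, as was the split at the median probe set. The alternatives were another normalization or centring, probe filters, variance priors, array weights, covariates, a replicate block and leaving out arrays.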

Additional observations from a re-analysis of the deposited data

Results flagged for a closer look

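Single arrays that stood far from the rest of their genotype were looked for in 99 groups, 33 genes in each of 3 genotypes, and 7 were found. Chance gives about 1 in 20, so that number is near the chance rate and single flags may be chance. Kcnq3 read 2.49 in homozygous replicate 3, below the next homozygous value of 2.71. Kcnj9 read 1.39 in homozygous replicate 3, above the next at 0.92. Hcn2 read 1.53 in heterozygous replicate 1, above the next at 1.31. Kcnn1 read 3.48 in heterozygous replicate 2, above the next at 3.15. Insm1 read 4.02 in heterozygous replicate 6, below the next at 4.76, and this array also stood apart along the first principal component. Kcnk4 read 0.63 in wildtype replicate 5, below the next at 0.87. Nalcn read 0.79 in wildtype replicate 1, below the next at 1.01. Without homozygous replicate 3 Asic1 did not pass (adjusted p = 0.084), while Asic1, Kcnd3 and Kcnc1 passed when any other array named here was left out.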

How the results depend on the processing

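Kcnd3 and Kcnc1 passed in homozygous against wildtype under each of 32 alternatives (highest adjusted p 0.036 and 0.039), and Asic1 in 28. Asic1 missed the threshold with the ventral list covariate (-0.68, adjusted p = 0.056) and the hypoxia list covariate (-0.65, adjusted p = 0.057), and without homozygous replicate 2 or replicate 3, its value running from -0.78 to -0.68 over the arrays left out. Insm1 ran from -2.13 to -1.88. Leaving out each array gave 2 to 4 channel genes called in homozygous against wildtype and 1 to 3 in the slope per allele, and 0 in both other comparisons. The median of the channel genes was -0.040 after median centring, -0.18 without the dimmest 1 of every 3 probe sets and -0.14 with the replicate block, and -0.12 to -0.09 over the arrays left out. Of 1050 repeats for 33 named genes, 1036 kept direction and side of the threshold, 4 lost a call (Asic1), 2 newly passed (Cacnb2 and Cacng4, given above) and 8 reversed, all far from the threshold. Kcnc4 reversed with the 75th percentile (-0.0065), ventral list (-0.0013) and hypoxia list covariates (-0.0045), without the 2 arrays that stood apart (-0.020), and over the arrays left out ran from -0.020 to 0.070. Scn4b reversed with the replicate block (-0.043) and ran from -0.036 to 0.13 over the arrays left out. Without homozygous replicate 3, Cacna2d2 was at -0.16, Cacnb1 at -0.089 and Hcn2 at -0.078, and without replicate 2 Scn3b was at -0.12, none of them called. The cause of these changes was not tested. It is not known whether replicate numbers pair embryos, and the correlations of same-numbered arrays (-0.21 to 0.22, 5 of 14 over 0.1) cannot decide it. The fit with the replicate block called 3 channel genes in homozygous against wildtype and 3 in the slope. In homozygous against wildtype it called 361 probe sets, against 94 without the block. The Eif2s3y covariate was chosen after seeing the data. Dim signal limits what can be seen for the 33 channel genes below the median probe set.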
